A study of Homo sapiens with 12 samples.

Results

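The solute carriers described here move sugars, inorganic ions, vitamins, organic acids, nucleosides and lipids across membranes. They were taken from the gene count table by symbol: names of the form SLC, family number, A and member number, with at least 120 counts over all libraries. Carriers of families 1, 3, 6, 7, 25, 30, 36, 38, 39 and 43 (amino acid, mitochondrial and zinc carriers for the most part) were set aside. This left 113 genes of 32 families among 56269 gene symbols, of 203 symbols of these families at any count and 209 SLC genes of all families with 120 or more counts. Nearest the limit, SLC22A20, SLC17A7, SLC4A9 and SLC26A10 were inside with 130, 136, 148 and 159 counts. SLC22A11, SLC4A8, SLC5A2 and SLC2A10 were outside with 118, 111, 107 and 99 counts.

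The cells were C4-2, a castration-resistant prostate cancer line that was derived from LNCaP, and RNA was sequenced from 12 libraries in 4 groups of 3. The groups were paxillin siRNA with DHT, paxillin siRNA with vehicle, nonspecific siRNA with DHT and nonspecific siRNA with vehicle. Per the labels' protocols all cells were transfected with an siRNA for 48 h and then kept without serum for 12 h. They then received 2.5 nM dihydrotestosterone (DHT), the most potent natural androgen, or its ethanol vehicle for 24 h. Paxillin, encoded by PXN, is an adaptor protein of focal adhesions, the sites where a cell is anchored to its matrix. C4-2 is a single cell line, so every value is of one genetic background, and no label tells if the 3 replicates of a group came from separate cultures. The p-values therefore measure the spread between these libraries, which may be technical.

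Solute carriers are membrane proteins that let a substrate pass down its gradient or couple its uptake to that of sodium, protons or another ion. Families are numbered by sequence, so that members of one family usually share a kind of substrate: family 2 holds the facilitative glucose transporters, family 5 the sodium-coupled sugar and vitamin carriers, families 4 and 26 the bicarbonate and anion exchangers, and family 16 the monocarboxylate carriers. In prostate epithelium androgens such as DHT control many secretory and metabolic genes. SLC45A3, also called prostein, is among the best known androgen targets and is largely restricted to the prostate.

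Library totals ran from 11944906 to 32040465 counts, with nonspecific vehicle replicate 1 the shallowest. Levels are given in CPM, counts per 1000000 of the TMM-scaled library size, and 1 count was worth 0.0328 to 0.0815 CPM. PXN followed the labels, with 14.2, 11.3 and 9.36 CPM under paxillin siRNA against 136, 121 and 122 CPM under nonspecific siRNA in DHT, and 16.7, 12.4 and 12.3 CPM against 149, 139 and 151 CPM in vehicle. The 8 luminal prostate markers, among them KLK3, summed to 13686 to 15236 CPM with DHT and to 7030 to 8900 CPM with vehicle, and their part in the results was not tested. In such bulk libraries fewer cells with a transcript and less of it per cell cannot be told apart. Basal (KRT5, KRT14, TP63) and leukocyte (PTPRC, CD3E, CD68) markers summed to at most 0.637 and 0.164 CPM in any library. Of the fibroblast markers COL1A1 was read at 24.8 to 47.6 CPM, while COL1A2 and DCN stayed at or under 0.0752 CPM. Of the endothelial markers VWF was read at 8.30 to 15 CPM, while PECAM1 and CDH5 stayed at or under 0.0872 CPM.

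All 113 solute carriers passed the filter on low counts and were tested. For each gene a log2 fold change was fitted with edgeR over all 16115 tested genes, and it is followed by its standard error. A gene was called, and is said to have risen or fallen, at a Benjamini-Hochberg adjusted p under 0.05. Exon length was taken from GENCODE 29, in which 112 of the 113 were found (all but SLC22A20). Per kilobase of exon, the mean level over the 12 libraries had a median of 4.36 CPM and ran from 0.0771 CPM for SLC17A7, a vesicular glutamate carrier of neurons, to 178 CPM for SLC45A3. Behind SLC45A3 stood SLC50A1, a Golgi and plasma membrane sugar carrier, with 132 CPM per kilobase, and SLC44A4, a choline-family carrier of epithelia, with 109 CPM per kilobase. SLC2A1, the glucose transporter GLUT1, followed at a level of 46.2 CPM per kilobase, SLC35A4, a member of the nucleotide sugar family, at 43.2 and SLC41A1, a magnesium exchanger, at 43.1. These means pool both treatments, and the places of SLC45A3 and SLC41A1 came from the DHT libraries. Over the 6 DHT libraries SLC45A3 stood at 343 CPM per kilobase (place 1) and SLC41A1 at 73.1 (place 4). Over the 6 vehicle libraries SLC45A3 stood at 12.7 CPM per kilobase (place 25) and SLC41A1 at 13.1 (place 24). In vehicle SLC50A1 was the highest, at 121 CPM per kilobase, and SLC44A4 was next, at 106 CPM per kilobase.

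Reads of 23 of the 113 genes could not be assigned with certainty by sequence or position, since at least 10% of their exon length overlapped another gene or at least 10% of their 31-base words occurred in one. SLC2A3 shared 29.9% of its words with other genes, 25.3% with SLC2A14, and SLC16A6 shared 12.6%, nearly all with the pseudogene SLC16A6P1. The table held 72 counts of SLC2A14 and 2 of SLC16A6P1 over all libraries. SLC35A1 shared 50.5% of its words with a gene annotated over it, and SLC33A1, SLC29A4, SLC50A1, SLC29A3, SLC35A3 and SLC31A1 shared 27.3%, 16.4%, 13.7%, 12.5%, 11.8% and 11.3%. On the opposite strand, a gene overlapped 63.1% of the exons of SLC31A2, 61.5% of SLC46A1, 51.7% of SLC26A10, 44.2% of SLC52A2 and 38.9% of SLC2A12. The overlap was 19.9% for SLC27A2 and between 10.3% and 16.5% for SLC2A11, SLC4A2, SLC9A5, SLC19A1, SLC22A23, SLC26A1, SLC27A5 and SLC29A2. The library kit kept strand, but the strand setting of the counting is not given in the sources used here, so the values of all these genes are uncertain to that extent.

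The androgen comparison asked which carriers differ between DHT and vehicle under each siRNA. SLC26A3, an intestinal chloride and bicarbonate exchanger, and SLC2A3, the high-affinity glucose transporter GLUT3, were read almost only in the DHT libraries. SLC45A3, the peptide carrier SLC15A2 and the magnesium exchanger SLC41A1 rose between 5.26-fold and 30.9-fold, and the sodium glucose cotransporter SLC5A1 was 7.14-fold lower under paxillin siRNA and 8.15-fold lower under nonspecific siRNA. Under paxillin siRNA 23 carriers rose and 35 fell, against 20.1% of all tested genes that rose and 17.9% that fell. Under nonspecific siRNA 29 rose and 35 fell, against 21.6% and 18.9% of all tested genes. In either direction 51.3% of the carriers were called under paxillin siRNA, where 38% of all tested genes were, and 56.6% under nonspecific siRNA, where 40.5% were. Among all genes with at least 120 counts, the carriers' own lower limit, the shares were 39.2% and 42.1%. In each arm 8 carriers rose and 8 fell at least 2-fold, a limit at which the shares of all tested genes are not given here. The median log2 fold change over the carriers was -0.06 under paxillin siRNA and -0.07 under nonspecific siRNA, against -0.01 over all tested genes in both.

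The 6 stretches of DNA that follow are the 250 bases before the RefSeq start (GRCh38.p14) of 5 carriers with large changes and of SLC2A1, read 5′ to 3′ on the strand of the gene. RefSeq starts can differ from the ends of the GENCODE genes given elsewhere. By those ends the windows of SLC15A2, SLC41A1 and SLC2A1 lie inside the gene, as does most of that of SLC5A1. The 6 stretches were picked after the values were seen, and capitals mark CG dinucleotides, the sites at which mammalian DNA can be methylated. SLC26A3 (chr7:107803224-107803473, minus strand) and SLC15A2 (chr3:121894151-121894400, plus strand), both under 1 CPM in every vehicle library, are shown beside genes above 1 CPM in every library: SLC45A3 (chr1:205680510-205680759, minus strand), SLC41A1 (chr1:205813199-205813448, minus strand), SLC2A1 (chr1:42958869-42959118, minus strand) and SLC5A1 (chr22:32043011-32043260, plus strand).
SLC26A3: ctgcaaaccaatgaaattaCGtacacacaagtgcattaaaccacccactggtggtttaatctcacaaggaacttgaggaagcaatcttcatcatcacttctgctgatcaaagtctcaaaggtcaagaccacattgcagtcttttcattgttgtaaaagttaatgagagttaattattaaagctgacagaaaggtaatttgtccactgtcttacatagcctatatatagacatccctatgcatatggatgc
SLC15A2: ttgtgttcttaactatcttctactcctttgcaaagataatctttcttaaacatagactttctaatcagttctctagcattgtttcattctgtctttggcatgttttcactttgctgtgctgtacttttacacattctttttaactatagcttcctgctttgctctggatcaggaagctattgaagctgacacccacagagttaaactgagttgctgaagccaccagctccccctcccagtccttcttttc
SLC45A3: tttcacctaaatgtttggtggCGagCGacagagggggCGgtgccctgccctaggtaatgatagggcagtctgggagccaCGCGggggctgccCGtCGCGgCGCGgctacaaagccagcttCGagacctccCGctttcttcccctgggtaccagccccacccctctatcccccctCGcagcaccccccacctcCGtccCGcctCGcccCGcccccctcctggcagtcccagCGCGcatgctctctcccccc
SLC41A1: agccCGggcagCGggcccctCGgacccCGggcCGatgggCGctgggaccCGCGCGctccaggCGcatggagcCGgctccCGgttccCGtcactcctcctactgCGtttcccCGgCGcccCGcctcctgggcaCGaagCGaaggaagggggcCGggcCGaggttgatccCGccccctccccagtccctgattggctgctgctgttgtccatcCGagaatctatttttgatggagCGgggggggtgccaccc
SLC2A1: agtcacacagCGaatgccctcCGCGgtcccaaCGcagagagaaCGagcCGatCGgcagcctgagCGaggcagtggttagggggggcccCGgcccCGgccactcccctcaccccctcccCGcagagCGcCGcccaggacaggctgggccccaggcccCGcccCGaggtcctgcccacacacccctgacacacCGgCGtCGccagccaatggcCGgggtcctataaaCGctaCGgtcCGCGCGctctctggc
SLC5A1: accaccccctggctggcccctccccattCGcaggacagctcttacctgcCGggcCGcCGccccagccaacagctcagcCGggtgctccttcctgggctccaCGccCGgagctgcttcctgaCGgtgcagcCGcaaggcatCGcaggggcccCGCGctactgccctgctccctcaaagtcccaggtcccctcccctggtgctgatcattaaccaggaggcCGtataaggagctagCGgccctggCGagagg

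SLC26A3 has 1 CG dinucleotide in this window and SLC15A2 has 0, whereas SLC45A3 has 19, SLC41A1 and SLC2A1 have 24 each and SLC5A1 has 15. Over 27305 RefSeq promoters of this length the median was 11 CG dinucleotides, and over the 85 of the 113 carriers that were matched it was 21. At most 2 CG dinucleotides stood in 23.6% of all promoters and in 9 carriers (10.6%). Few CG dinucleotides were not confined to carriers near 0 in vehicle. SLC4A4 has 0 and was read at 60.2 to 151 CPM over the 12 libraries, SLC16A7 has 1 at 5.32 to 24.4 CPM and SLC27A5 has 2 at 27 to 39.7 CPM. Conversely SLC17A7, under 1 CPM in every library, has 17. SLC2A3, also near 0 in vehicle, was not among the matched carriers, so it has no place in this contrast.

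SLC26A3 (chr7:107765467-107803225, GRCh38) exchanges chloride for bicarbonate at the surface of intestinal cells. Under paxillin siRNA it had 6.72, 7.24 and 7.92 CPM with DHT and 0 counts in all 3 vehicle libraries. Under nonspecific siRNA SLC26A3 had 7.5, 6.32 and 6.94 CPM with DHT and again 0 counts in all 3 vehicle libraries. All 6 DHT libraries therefore stood apart from all 6 vehicle libraries, and the 2 DHT groups overlapped. Set against a floor of 3 counts over the vehicle group, its level was at least 207-fold higher with DHT under paxillin siRNA and at least 149-fold higher under nonspecific siRNA (edgeR adjusted p = 1.73e-10 and 4.48e-10). A count of 0 over a group allows a level of up to 0.0351 CPM under paxillin siRNA and 0.0464 CPM under nonspecific siRNA, which covers counting error only.

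SLC2A3 (chr12:7919230-7936275) encodes GLUT3, the glucose transporter of neurons, which works at low glucose. Under paxillin siRNA it had 10.2, 9.25 and 10.5 CPM with DHT against 0.0329, 0.0365 and 0.109 CPM with vehicle. Under nonspecific siRNA SLC2A3 had 15.1, 11.1 and 10.2 CPM with DHT against 0.0815, 0.116 and 0 CPM with vehicle. The vehicle libraries lay at or near 0, far below every DHT library. The log2 fold changes with DHT were 7.30 ± 0.34 under paxillin siRNA and 7.50 ± 0.35 under nonspecific siRNA (edgeR adjusted p = 9.55e-12 and 1.42e-11). The pooled vehicle counts were 5 under paxillin siRNA and 4 under nonspecific siRNA. The pooled ratios were 171 (95% exact interval of 72.9 to 527) under paxillin siRNA and 195 (75.7 to 716) under nonspecific siRNA, with intervals that cover counting error only. Single vehicle libraries moved the fitted change, to 7.98 without paxillin vehicle replicate 3, and to 8.62 and 6.78 without nonspecific vehicle replicates 2 and 3. SLC2A14, with which SLC2A3 shares sequence, had 33 counts in the DHT group and 0 in the vehicle group under paxillin siRNA, and 37 counts with DHT and 2 with vehicle under nonspecific siRNA.

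SLC45A3 (chr1:205657851-205680459), the prostate carrier prostein, had 1385, 1196 and 1143 CPM with DHT against 51.1, 52.8 and 51.4 CPM with vehicle under paxillin siRNA. Under nonspecific siRNA SLC45A3 had 1450, 1195 and 1254 CPM with DHT against 47.1, 40.3 and 39.7 CPM with vehicle. Every DHT library was far above every vehicle library, and replicate 1 was the highest of both DHT groups. Its log2 fold changes with DHT were 4.58 ± 0.10 under paxillin siRNA and 4.95 ± 0.10 under nonspecific siRNA (edgeR adjusted p = 8.24e-16 and 7.03e-16), or 24-fold higher under paxillin siRNA and 30.9-fold higher under nonspecific siRNA.

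SLC2A1 (chr1:42925375-42959176) encodes GLUT1, the glucose transporter that most proliferating cells use. Under paxillin siRNA it had 256, 269 and 282 CPM with DHT against 144, 169 and 178 CPM with vehicle. Under nonspecific siRNA SLC2A1 had 260.4, 301 and 309 CPM with DHT against 142, 156 and 154 CPM with vehicle. The DHT and vehicle libraries did not overlap in either arm, but the shift was far smaller than that of SLC2A3, with log2 fold changes of 0.72 ± 0.08 under paxillin siRNA and 0.94 ± 0.08 under nonspecific siRNA (edgeR adjusted p = 1.48e-06 and 4.97e-08). Per kilobase of exon, SLC2A1 stood at a mean level of 46.2 CPM over the 12 libraries, and SLC2A3 at 0.902 CPM.

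**Figure D1:**
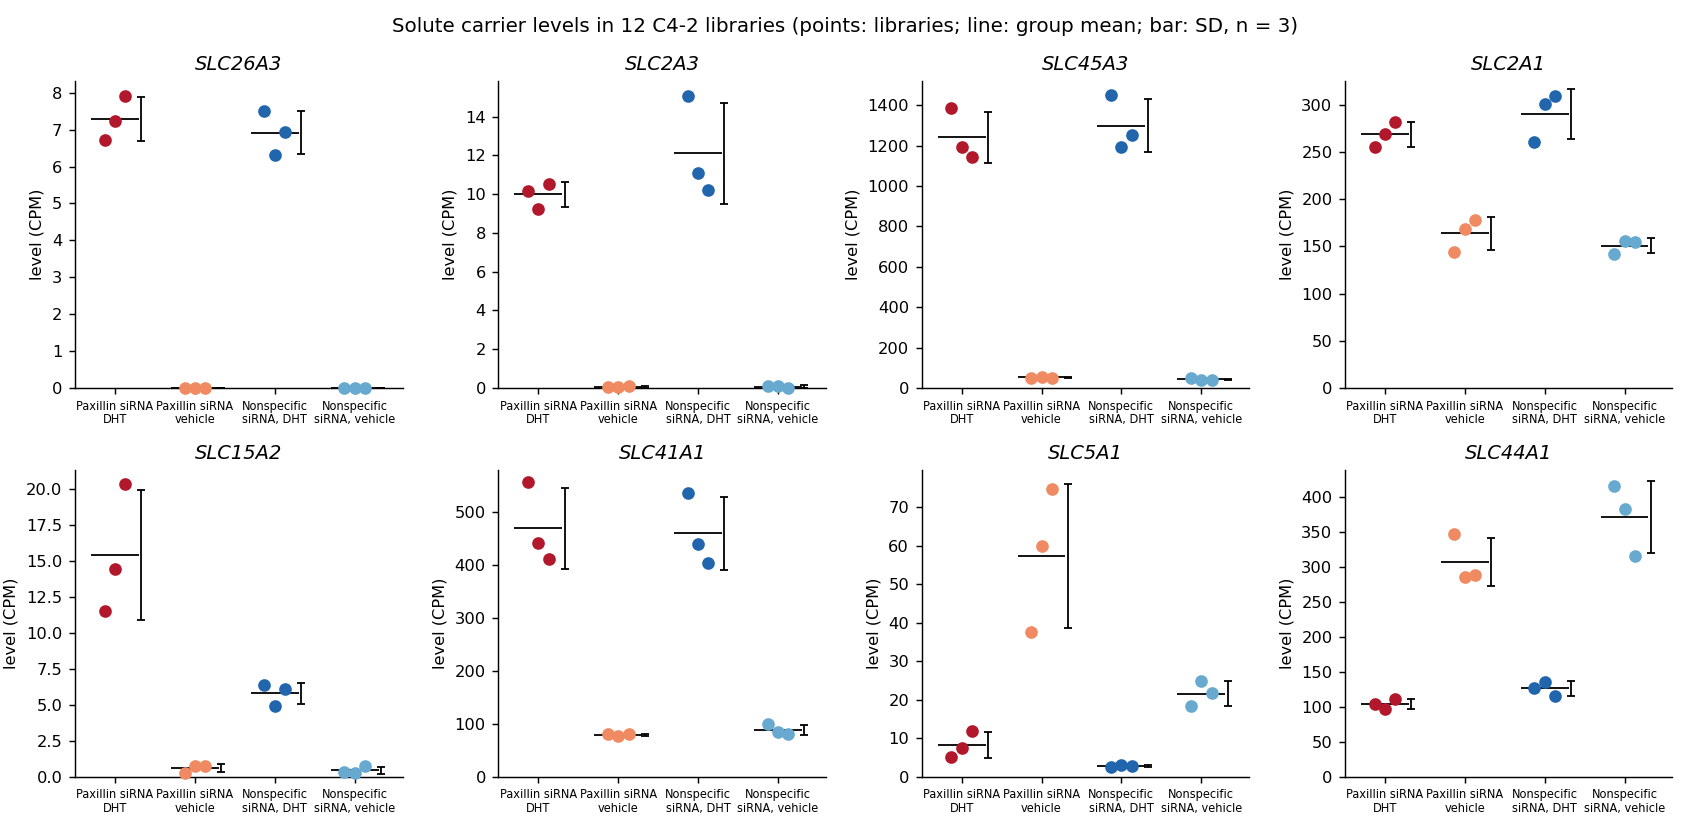
Levels in CPM (linear axes from 0) of 8 solute carriers in the 12 libraries, by group; points are libraries, the line is the group mean and the bar its SD (n = 3). SLC26A3 had 0 counts in all 6 vehicle libraries, SLC45A3 lay between 1143 and 1450 CPM in DHT against 39.7 to 52.8 CPM in vehicle, and SLC5A1 and SLC44A1 lay lower with DHT than with vehicle in both arms.

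Of the 16 sugar carriers, 6 rose and 3 fell with DHT under paxillin siRNA, and 6 rose and 5 fell under nonspecific siRNA. Those that rose were the same 6 in both arms: SLC2A1, SLC2A3 and SLC45A3 above, SLC2A12, SLC2A4 and SLC50A1. SLC2A12, the glucose transporter GLUT12, had 110.0, 101 and 107 CPM with DHT against 51.1, 47.1 and 52 CPM with vehicle under paxillin siRNA. Under nonspecific siRNA SLC2A12 had 138, 122 and 132 CPM with DHT against 65.3, 58.6 and 48.2 CPM with vehicle. Its log2 fold changes were 1.08 ± 0.09 under paxillin siRNA and 1.20 ± 0.09 under nonspecific siRNA (edgeR adjusted p = 1.39e-08 and 4.49e-09). SLC2A4, the insulin-responsive GLUT4 of muscle and fat, had group means of 11.1 ± 0.8 CPM with DHT and 8.11 ± 0.473 CPM with vehicle under paxillin siRNA (SD, n = 3 each). Under nonspecific siRNA they were 14.5 ± 1.79 CPM with DHT and 9.39 ± 1.49 CPM with vehicle. These are log2 fold changes of 0.46 under paxillin siRNA and 0.65 under nonspecific siRNA (edgeR adjusted p = 0.00682 and 3.91e-04). SLC50A1, the second highest carrier per kilobase, rose by a log2 fold change of 0.19 under paxillin siRNA and 0.28 under nonspecific siRNA (edgeR adjusted p = 0.019 and 0.0012). Its call under paxillin siRNA was lost without paxillin DHT replicate 2 or paxillin vehicle replicate 2 (adjusted p = 0.0862) and with upper-quartile scaling (adjusted p = 0.176).

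SLC5A1 (chr22:32043032-32113029), the sodium glucose cotransporter SGLT1 of gut and kidney, fell most among all 113. Under paxillin siRNA it had 5.05, 7.52 and 11.7 CPM with DHT against 37.5, 59.9 and 74.7 CPM with vehicle. Under nonspecific siRNA SLC5A1 had 2.4, 3.01 and 2.62 CPM with DHT against 18.3, 24.8 and 21.7 CPM with vehicle. Each DHT library lay below each vehicle library of the same arm, while the paxillin siRNA libraries were spread more widely than the nonspecific ones, with replicate 3 the highest. The level with DHT was 7.14-fold lower under paxillin siRNA and 8.15-fold lower under nonspecific siRNA, and the log2 fold changes were -2.84 ± 0.24 under paxillin siRNA and -3.03 ± 0.29 under nonspecific siRNA (edgeR adjusted p = 3.45e-08 and 1.93e-07). Both carriers of myo-inositol, an osmolyte and lipid precursor, were lower with DHT under nonspecific siRNA: the sodium-coupled SLC5A3 had a log2 fold change of -0.87 and the proton-coupled SLC2A13 one of -1.18 (edgeR adjusted p = 8.91e-06 and 8.61e-05). Under paxillin siRNA SLC5A3 fell as well (-0.51, edgeR adjusted p = 0.00164), and SLC2A13 had -0.16 (edgeR adjusted p = 0.555). The intracellular glucose transporter SLC2A8 fell in both arms, by log2 fold changes of -0.40 under paxillin siRNA and -0.53 under nonspecific siRNA (edgeR adjusted p = 0.00169 and 1.48e-04). SLC2A11, a further member of the glucose transporter family, had -0.38 under paxillin siRNA (edgeR adjusted p = 0.178) and fell by a log2 fold change of -0.64 under nonspecific siRNA (edgeR adjusted p = 0.0328), a call that was lost without any 1 of nonspecific DHT replicates 1 and 3 or nonspecific vehicle replicates 1, 2 and 3 (adjusted p of 0.0534 to 0.122).

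SLC15A2 (chr3:121894089-121944102), the proton-coupled carrier PEPT2 that takes up di- and tripeptides, was among the largest rises. Under paxillin siRNA it had 11.5, 14.4 and 20.3 CPM with DHT against 0.263, 0.766 and 0.761 CPM with vehicle. Under nonspecific siRNA SLC15A2 had 6.34, 4.92 and 6.07 CPM with DHT against 0.326, 0.271 and 0.714 CPM with vehicle. All DHT libraries were above all vehicle libraries, and the DHT libraries under paxillin siRNA were above those under nonspecific siRNA. Its log2 fold changes with DHT were 4.70 ± 0.29 under paxillin siRNA and 3.63 ± 0.35 under nonspecific siRNA (edgeR adjusted p = 5.90e-10 and 2.00e-07), and the change under nonspecific siRNA was 4.30 without nonspecific vehicle replicate 3. In its class of 4 peptide, vesicular and lysosomal carriers SLC17A5, the sialic acid exporter of lysosomes, rose by a log2 fold change of 0.51 ± 0.10 under paxillin siRNA and 0.49 ± 0.10 under nonspecific siRNA (edgeR adjusted p = 4.79e-04 and 7.47e-04). SLC17A7, under 1 CPM in every library, fell under nonspecific siRNA by a log2 fold change of -1.20 (edgeR adjusted p = 0.0328) and had -0.30 under paxillin siRNA (edgeR adjusted p = 0.654). The call was lost without any 1 of nonspecific DHT replicates 2 and 3 or nonspecific vehicle replicates 1 and 2 (adjusted p of 0.0607 to 0.124), with no filter and with DESeq2 (adjusted p = 0.0514 and 0.0537).

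SLC41A1 (chr1:205789093-205813748), which exchanges magnesium for sodium at the plasma membrane, had 556, 442 and 411 CPM with DHT against 79.6, 76 and 80.2 CPM with vehicle under paxillin siRNA. Under nonspecific siRNA SLC41A1 had 537, 439.7 and 404 CPM with DHT against 98.8, 84.6 and 79.8 CPM with vehicle. The DHT libraries were above all vehicle libraries, and replicate 1 was the highest of both DHT groups, as for SLC45A3. The level with DHT was 5.98-fold higher under paxillin siRNA and 5.26-fold higher under nonspecific siRNA, with log2 fold changes of 2.58 ± 0.12 under paxillin siRNA and 2.40 ± 0.12 under nonspecific siRNA (edgeR adjusted p = 7.66e-12 and 2.23e-11). Of the other 3 calcium and magnesium exchangers, SLC24A1, the sodium, calcium and potassium exchanger of rod photoreceptors, fell by a log2 fold change of -0.49 ± 0.09 under paxillin siRNA and -0.80 ± 0.10 under nonspecific siRNA (edgeR adjusted p = 3.85e-04 and 2.91e-06). SLC41A2, a related magnesium carrier, fell under paxillin siRNA by a log2 fold change of -0.34 (edgeR adjusted p = 0.0412), a call lost without any 1 of paxillin DHT replicates 1 and 2, paxillin vehicle replicate 3, nonspecific DHT replicate 2 or nonspecific vehicle replicate 2 (adjusted p of 0.052 to 0.201) and with the compared groups alone (adjusted p = 0.0655). Under nonspecific siRNA it had -0.27 (edgeR adjusted p = 0.103), which a replicate block and upper-quartile scaling called (adjusted p = 0.0271 and 0.0429). SLC41A3 was called in neither arm.

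**Figure D2:**
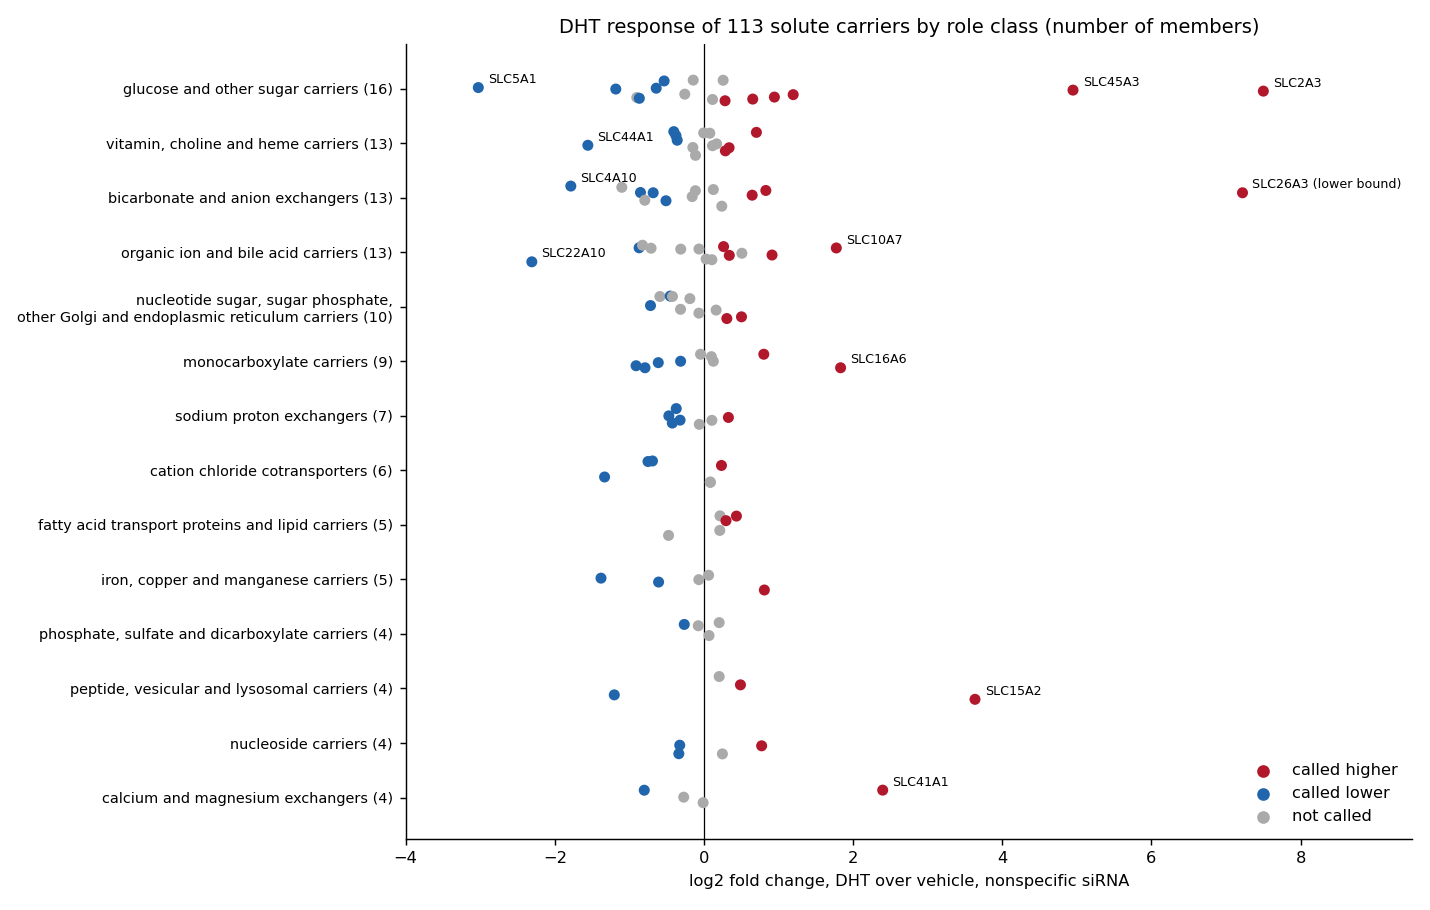
Log2 fold change of each of the 113 solute carriers with DHT over vehicle under nonspecific siRNA, in 14 classes by substrate; points are genes, spread vertically for legibility, and colour gives the call at an edgeR adjusted p under 0.05. SLC26A3 is drawn at its lower bound, since its vehicle group held 0 counts; most classes hold calls in both directions, and SLC26A3, SLC2A3, SLC45A3, SLC15A2 and SLC41A1 lie above a log2 fold change of 2.

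The 13 bicarbonate and anion exchangers, SLC26A3 among them, were called in both directions. Under paxillin siRNA 4 rose and 4 fell, and under nonspecific siRNA 3 rose and 4 fell. SLC26A1, a sulfate and oxalate exchanger, rose to 44 ± 7.38 CPM with DHT under paxillin siRNA, against 28.7 ± 5.52 CPM with vehicle, and to 32.7 ± 6.89 CPM with DHT under nonspecific siRNA, against 18.2 ± 3.06 CPM with vehicle (SD, n = 3 each). Its log2 fold changes were 0.62 ± 0.16 under paxillin siRNA and 0.83 ± 0.17 under nonspecific siRNA (edgeR adjusted p = 0.0047 and 7.05e-04). SLC4A7, a sodium bicarbonate cotransporter of breast and other epithelia, rose by log2 fold changes of 0.49 under paxillin siRNA and 0.65 under nonspecific siRNA (edgeR adjusted p = 0.00386 and 4.54e-04), and the sulfate carrier SLC26A2 rose under paxillin siRNA (0.49, edgeR adjusted p = 0.00201). Under nonspecific siRNA SLC26A2 had 0.24 (edgeR adjusted p = 0.11), which the fit with no filter on low counts called (adjusted p = 0.0496).

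Those that fell included the electrogenic sodium bicarbonate cotransporter SLC4A4, with 80.5, 103 and 123 CPM with DHT against 129, 135 and 151 CPM with vehicle under paxillin siRNA. Under nonspecific siRNA SLC4A4 had 60.2, 70.1 and 83.6 CPM with DHT against 117, 116 and 110.1 CPM with vehicle. Its DHT libraries lay below its vehicle libraries in each arm, with log2 fold changes of -0.44 ± 0.12 under paxillin siRNA and -0.68 ± 0.12 under nonspecific siRNA (edgeR adjusted p = 0.00811 and 2.60e-04). SLC4A11, a proton and water conducting protein of the corneal endothelium, fell by log2 fold changes of -0.68 under paxillin siRNA and -0.85 under nonspecific siRNA (edgeR adjusted p = 0.00258 and 4.61e-04). SLC4A3, the chloride bicarbonate exchanger of heart and brain, fell by 0.29 under paxillin siRNA and 0.51 under nonspecific siRNA on the log2 scale (edgeR adjusted p = 0.03 and 7.09e-04). Its call under paxillin siRNA was lost without any 1 of paxillin DHT replicates 1 and 2 or paxillin vehicle replicates 1, 2 and 3 (adjusted p of 0.0589 to 0.154) and with no filter on low counts (adjusted p = 0.0816). SLC4A10, a sodium-driven bicarbonate carrier of neurons, was near the limit of detection, with 0.393, 0.551 and 0.777 CPM with DHT against 1.35, 1.82 and 1.56 CPM with vehicle under paxillin siRNA. Under nonspecific siRNA SLC4A10 had 0.214, 0.131 and 0.225 CPM with DHT against 0.245, 1.01 and 0.602 CPM with vehicle. It fell by log2 fold changes of -1.46 ± 0.35 under paxillin siRNA and -1.79 ± 0.49 under nonspecific siRNA (edgeR adjusted p = 0.00319 and 0.00743). Its call under nonspecific siRNA was lost without nonspecific vehicle replicate 2 (adjusted p = 0.0803). SLC4A2, the chloride bicarbonate exchanger at the highest level per kilobase of its family, had log2 fold changes of -0.15 under paxillin siRNA and -0.12 under nonspecific siRNA and was called in neither arm (edgeR adjusted p = 0.163 and 0.278); with upper-quartile scaling it was called under paxillin siRNA (-0.24, adjusted p = 0.0229).

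SLC12A2 (chr5:128083766-128189688), the sodium, potassium and chloride cotransporter NKCC1 that loads epithelial cells with chloride, had 61.8, 69.1 and 83.5 CPM with DHT against 183, 189 and 224 CPM with vehicle under paxillin siRNA. Under nonspecific siRNA SLC12A2 had 87.1, 97.6 and 102 CPM with DHT against 228, 241 and 252 CPM with vehicle. All vehicle libraries lay above all DHT libraries, and the log2 fold changes were -1.48 ± 0.10 under paxillin siRNA and -1.33 ± 0.10 under nonspecific siRNA (edgeR adjusted p = 1.47e-09 and 5.77e-09). SLC12A4, a potassium chloride cotransporter that works in the outward direction, fell under nonspecific siRNA (-0.69, edgeR adjusted p = 0.0425) and had 0.07 under paxillin siRNA (edgeR adjusted p = 0.854). That call was lost without any 1 of paxillin DHT replicate 2, paxillin vehicle replicates 1 and 2, nonspecific DHT replicates 1 and 3 or nonspecific vehicle replicates 1, 2 and 3 (adjusted p of 0.0502 to 0.114), and with no filter, DESeq2, the replicate block or the compared groups alone (adjusted p of 0.0504 to 0.146). Among the 6 cation chloride cotransporters 2 fell under paxillin siRNA, and 1 rose and 3 fell under nonspecific siRNA. The carrier that rose, SLC12A8, had a log2 fold change of 0.08 under paxillin siRNA and 0.23 under nonspecific siRNA (edgeR adjusted p = 0.441 and 0.0274). The call was lost without any 1 of nonspecific DHT replicates 1, 2 and 3 or nonspecific vehicle replicates 2 and 3 (adjusted p of 0.0514 to 0.118) and with upper-quartile scaling (adjusted p = 0.111).

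Sodium proton exchangers, which expel protons from the cytosol or from organelles, numbered 7, and 1 rose and 4 fell in each arm. Those that fell included the Golgi SLC9A7 and the neuronal SLC9A5. SLC9A7 fell by log2 fold changes of -0.31 under paxillin siRNA and -0.37 under nonspecific siRNA (edgeR adjusted p = 0.00412 and 8.56e-04). SLC9A5 had log2 fold changes of -0.63 ± 0.13 under paxillin siRNA and -0.43 ± 0.14 under nonspecific siRNA (edgeR adjusted p = 9.41e-04 and 0.0218). The call under nonspecific siRNA was lost without any 1 of nonspecific DHT replicates 1 and 3 or nonspecific vehicle replicates 1 and 2 (adjusted p of 0.05 to 0.0746) and with no filter on low counts (adjusted p = 0.0603). SLC9A2, an exchanger of the apical membrane of epithelia, rose, with log2 fold changes of 0.24 ± 0.09 under paxillin siRNA and 0.33 ± 0.09 under nonspecific siRNA (edgeR adjusted p = 0.0436 and 0.00857). Its call under paxillin siRNA was lost without any 1 of paxillin DHT replicate 3, paxillin vehicle replicates 1 and 2, nonspecific DHT replicate 2 or nonspecific vehicle replicates 2 and 3 (adjusted p of 0.0536 to 0.258) and with RLE or upper-quartile scaling, DESeq2 or the compared groups alone (adjusted p of 0.0507 to 0.193). Its call under nonspecific siRNA was lost without nonspecific DHT replicate 3 (adjusted p = 0.0507).

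Of the 5 iron, copper and manganese carriers 1 rose and 1 fell under paxillin siRNA, and 1 rose and 2 fell under nonspecific siRNA. SLC40A1, ferroportin, the iron exporter of mammalian cells, had 2.52, 3.31 and 4.62 CPM with DHT against 6.25, 8.06 and 8.55 CPM with vehicle under paxillin siRNA. Under nonspecific siRNA SLC40A1 had 2.27, 2.79 and 2.92 CPM with DHT against 5.63, 7.17 and 7.75 CPM with vehicle. Every DHT library was below every vehicle library, with log2 fold changes of -1.14 ± 0.19 under paxillin siRNA and -1.38 ± 0.21 under nonspecific siRNA (edgeR adjusted p = 1.48e-04 and 3.68e-05). SLC31A2, a copper carrier of endosomes, rose by log2 fold changes of 0.93 ± 0.12 under paxillin siRNA and 0.81 ± 0.12 under nonspecific siRNA (edgeR adjusted p = 4.39e-06 and 3.23e-05), and a gene on the opposite strand covers 63.1% of its exons. SLC11A1, the iron and manganese carrier of phagocytes, was read at 1.7 CPM with DHT and 2.56 CPM with vehicle on average and fell under nonspecific siRNA by a log2 fold change of -0.61 (edgeR adjusted p = 0.041), against -0.53 under paxillin siRNA (edgeR adjusted p = 0.0605). The call was lost without any 1 of nonspecific DHT replicates 1, 2 and 3 or nonspecific vehicle replicate 2 (adjusted p of 0.0522 to 0.278), with DESeq2 (adjusted p = 0.0505) and with no filter on low counts (adjusted p = 0.0607), and a replicate block and upper-quartile scaling called SLC11A1 under paxillin siRNA as well (adjusted p = 0.0366 and 0.0321). The iron importer SLC11A2 (DMT1) and the copper importer SLC31A1 had log2 fold changes between -0.07 and 0.09 and were called in neither arm.

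Of the choline carrier family, SLC44A1 and SLC44A2 fell in both arms. SLC44A1 (chr9:105244622-105439171), which brings choline into cells and mitochondria, had 103, 95.9 and 111 CPM with DHT against 347, 285 and 288 CPM with vehicle under paxillin siRNA. Under nonspecific siRNA SLC44A1 had 126, 136 and 115 CPM with DHT against 415, 382 and 315 CPM with vehicle. The lowest vehicle library was more than 2 times as high as the highest DHT library, and the log2 fold changes were -1.57 ± 0.10 under paxillin siRNA and -1.56 ± 0.10 under nonspecific siRNA (edgeR adjusted p = 7.21e-10 and 8.20e-10). SLC44A2, the choline carrier that also bears a neutrophil antigen, fell by 0.30 under paxillin siRNA and 0.36 under nonspecific siRNA on the log2 scale (edgeR adjusted p = 0.00678 and 0.00159). SLC44A4, at the highest level per kilobase of the family, had log2 fold changes of 0.13 under paxillin siRNA and 0.08 under nonspecific siRNA (edgeR adjusted p = 0.137 and 0.377); a replicate block called the value under paxillin siRNA (adjusted p = 0.0493). SLC44A3, a member with no settled substrate, was called in neither arm.

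Among the vitamin and heme carriers, the reduced folate carrier SLC19A1 had 107, 98.7 and 111 CPM with DHT against 74.5, 77.3 and 95.6 CPM with vehicle under paxillin siRNA. Under nonspecific siRNA SLC19A1 had 92.2, 99.6 and 96 CPM with DHT against 65.5, 51.2 and 60.9 CPM with vehicle. It rose by log2 fold changes of 0.35 ± 0.09 under paxillin siRNA and 0.70 ± 0.09 under nonspecific siRNA (edgeR adjusted p = 0.005 and 1.02e-05), without overlap of DHT and vehicle in either arm. The thiamine carrier SLC19A2 rose under nonspecific siRNA (0.34, edgeR adjusted p = 0.00149) and had 0.16 under paxillin siRNA (edgeR adjusted p = 0.0935). SLC48A1, which moves heme out of lysosomes, fell by log2 fold changes of -0.43 under paxillin siRNA and -0.41 under nonspecific siRNA (edgeR adjusted p = 0.00654 and 0.0112). Its call under nonspecific siRNA was lost without any 1 of nonspecific DHT replicate 2 or nonspecific vehicle replicate 3 (adjusted p of 0.0525 to 0.0603). The riboflavin carrier SLC52A3 fell by log2 fold changes of -0.42 under paxillin siRNA and -0.38 under nonspecific siRNA (edgeR adjusted p = 0.0131 and 0.0376). Its calls were lost without any 1 of paxillin DHT replicate 2 or paxillin vehicle replicate 3 (adjusted p of 0.0584 to 0.0754) for paxillin siRNA, and without any 1 of nonspecific DHT replicates 1 and 3 or nonspecific vehicle replicates 1 and 3 (adjusted p of 0.08 to 0.158) and with no filter (adjusted p = 0.0522) for nonspecific siRNA. Over the 13 vitamin, choline and heme carriers together, 1 rose and 5 fell under paxillin siRNA, and 3 rose and 4 fell under nonspecific siRNA.

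Monocarboxylate carriers, which move lactate, pyruvate, ketone bodies and related acids, numbered 9, of which 2 rose and 4 fell in each arm. SLC16A3, the lactate exporter MCT4, had 164, 154 and 145 CPM with DHT against 88.9, 95.1 and 97.7 CPM with vehicle under paxillin siRNA. Under nonspecific siRNA SLC16A3 had 183, 180.2 and 169 CPM with DHT against 101, 105 and 99 CPM with vehicle. It rose by log2 fold changes of 0.72 ± 0.06 under paxillin siRNA and 0.80 ± 0.06 under nonspecific siRNA (edgeR adjusted p = 5.55e-08 and 1.40e-08), with no overlap of the groups. SLC16A6, known in zebrafish as a ketone body exporter of the liver, had 4.92, 6.02 and 6.76 CPM with DHT against 1.87, 2.08 and 2.25 CPM with vehicle under paxillin siRNA. Under nonspecific siRNA SLC16A6 had 7.5, 8.45 and 10.3 CPM with DHT against 2.53, 2.02 and 2.86 CPM with vehicle. The DHT libraries were again above the vehicle libraries, and the log2 fold changes were 1.51 ± 0.18 under paxillin siRNA and 1.83 ± 0.18 under nonspecific siRNA (edgeR adjusted p = 2.78e-06 and 2.60e-07). SLC16A7, the high-affinity pyruvate and lactate carrier MCT2, fell by log2 fold changes of -1.01 ± 0.16 under paxillin siRNA and -0.91 ± 0.15 under nonspecific siRNA (edgeR adjusted p = 6.73e-05 and 1.14e-04). SLC16A14, whose substrate is not settled, fell by 0.87 under paxillin siRNA and 0.79 under nonspecific siRNA on the log2 scale (edgeR adjusted p = 9.70e-08 and 5.25e-07). The aromatic amino acid carrier SLC16A10 fell by log2 fold changes of -0.32 under paxillin siRNA and -0.31 under nonspecific siRNA (edgeR adjusted p = 0.0373 and 0.0393). The calls of SLC16A10 were lost without any 1 of paxillin DHT replicates 1 and 2 or paxillin vehicle replicate 3 (adjusted p of 0.0627 to 0.252) for paxillin siRNA, there also with the compared groups alone (adjusted p = 0.0608), and without any 1 of nonspecific DHT replicates 1 and 2 or nonspecific vehicle replicates 1 and 3 (adjusted p of 0.0676 to 0.149) for nonspecific siRNA. SLC16A1, the lactate carrier MCT1, had -0.13 under paxillin siRNA and 0.10 under nonspecific siRNA and was called in neither arm (edgeR adjusted p = 0.349 and 0.491).

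Of the 13 organic ion and bile acid carriers, 2 rose and 3 fell under paxillin siRNA, and 4 rose and 2 fell under nonspecific siRNA. SLC10A7, a member of the bile acid family that is needed for normal skeletal growth, had 114, 117 and 124 CPM with DHT against 36.1, 35.7 and 38.1 CPM with vehicle under paxillin siRNA. Under nonspecific siRNA SLC10A7 had 86.9, 83.6 and 85.2 CPM with DHT against 26.3, 26.2 and 22.5 CPM with vehicle. Replicates lay close together and all DHT libraries were above all vehicle libraries, with log2 fold changes of 1.69 ± 0.07 under paxillin siRNA and 1.77 ± 0.07 under nonspecific siRNA (edgeR adjusted p = 9.36e-13 and 1.01e-12). SLC22A31, an organic ion family member without a known substrate, rose by log2 fold changes of 0.65 ± 0.09 under paxillin siRNA and 0.91 ± 0.10 under nonspecific siRNA (edgeR adjusted p = 1.87e-05 and 7.56e-07). SLC22A10, a liver member of the organic anion transporters, was at the low end, with 0.0983, 0.275 and 0.388 CPM with DHT against 0.855, 0.948 and 0.797 CPM with vehicle under paxillin siRNA. Under nonspecific siRNA SLC22A10 had 0.343, 0.131 and 0.3 CPM with DHT against 1.22, 1.36 and 1.32 CPM with vehicle. It fell by log2 fold changes of -1.79 ± 0.40 under paxillin siRNA and -2.31 ± 0.40 under nonspecific siRNA (edgeR adjusted p = 0.00189 and 1.70e-04). SLC22A15, a carrier of zwitterions such as ergothioneine, fell by log2 fold changes of -0.97 under paxillin siRNA and -0.87 under nonspecific siRNA (edgeR adjusted p = 0.0077 and 0.0259). The call under nonspecific siRNA was lost without any 1 of nonspecific DHT replicates 1 and 2 or nonspecific vehicle replicates 2 and 3 (adjusted p of 0.0582 to 0.122).

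Of the 4 nucleoside carriers 1 rose and 2 fell in each arm. SLC29A2, the equilibrative nucleoside transporter ENT2, rose by log2 fold changes of 0.53 ± 0.11 under paxillin siRNA and 0.77 ± 0.11 under nonspecific siRNA (edgeR adjusted p = 7.48e-04 and 1.91e-05). SLC29A1, or ENT1, had 23.8, 24.2 and 25.5 CPM with DHT against 39, 39.6 and 47 CPM with vehicle under paxillin siRNA. Under nonspecific siRNA SLC29A1 had 23.9, 25 and 24.8 CPM with DHT against 38, 27 and 29.4 CPM with vehicle. DHT lay below vehicle in both arms, with nonspecific vehicle replicate 1 high in its group, and the log2 fold changes were -0.77 ± 0.10 under paxillin siRNA and -0.34 ± 0.11 under nonspecific siRNA (edgeR adjusted p = 8.57e-06 and 0.0157). Its call under nonspecific siRNA was lost without nonspecific vehicle replicate 1 (adjusted p = 0.0909). SLC29A3, the lysosomal member, fell by log2 fold changes of -0.31 under paxillin siRNA and -0.33 under nonspecific siRNA (edgeR adjusted p = 0.028 and 0.0242). These calls were lost without any 1 of paxillin DHT replicates 1 and 2 or paxillin vehicle replicate 3 (adjusted p of 0.0657 to 0.126) for paxillin siRNA and without any 1 of nonspecific DHT replicates 1 and 2 or nonspecific vehicle replicates 2 and 3 (adjusted p of 0.0572 to 0.129) for nonspecific siRNA.

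Carriers classed with the Golgi and endoplasmic reticulum, some of which supply the enzymes of glycosylation and related reactions, numbered 10. Of these 2 rose and 4 fell under paxillin siRNA, and 2 rose and 2 fell under nonspecific siRNA. The UDP-galactose carrier SLC35A2 rose by log2 fold changes of 0.39 ± 0.07 under paxillin siRNA and 0.50 ± 0.07 under nonspecific siRNA (edgeR adjusted p = 2.07e-04 and 1.74e-05). SLC33A1, the acetyl-CoA carrier of the endoplasmic reticulum, rose by 0.40 under paxillin siRNA and 0.31 under nonspecific siRNA (edgeR adjusted p = 0.0051 and 0.0259). The call under nonspecific siRNA was lost without any 1 of nonspecific DHT replicates 1 and 3 or nonspecific vehicle replicates 2 and 3 (adjusted p of 0.0504 to 0.113) and with upper-quartile scaling (adjusted p = 0.0771). SLC37A3, in this class by its family though it releases bisphosphonates from lysosomes, fell by log2 fold changes of -0.61 ± 0.08 under paxillin siRNA and -0.72 ± 0.08 under nonspecific siRNA (edgeR adjusted p = 6.80e-06 and 9.40e-07). SLC35A5 of the nucleotide sugar family fell by 0.32 under paxillin siRNA and 0.45 under nonspecific siRNA on the log2 scale (edgeR adjusted p = 0.00263 and 1.39e-04). SLC35A4 had log2 fold changes of 0.11 under paxillin siRNA and 0.16 under nonspecific siRNA and was called in neither arm (edgeR adjusted p = 0.218 and 0.0697), though a replicate block called the value under nonspecific siRNA (adjusted p = 0.0195).

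Of the 4 phosphate, sulfate and dicarboxylate carriers 1 fell in each arm. SLC20A2, a sodium phosphate cotransporter, fell by log2 fold changes of -0.52 ± 0.10 under paxillin siRNA and -0.26 ± 0.10 under nonspecific siRNA (edgeR adjusted p = 3.79e-04 and 0.0429). Its call under nonspecific siRNA was lost without any 1 of paxillin DHT replicate 2, nonspecific DHT replicates 1 and 2 or nonspecific vehicle replicates 1, 2 and 3 (adjusted p of 0.054 to 0.193). The related SLC20A1 had -0.01 under paxillin siRNA and 0.20 under nonspecific siRNA and was called in neither arm (edgeR adjusted p = 0.942 and 0.0521), though a replicate block and the fit with no filter called the value under nonspecific siRNA (adjusted p = 0.0152 and 0.0332). Of the 5 fatty acid transport proteins and lipid carriers 2 rose under nonspecific siRNA. SLC27A4 and SLC27A5, which activate fatty acids and bile acids as CoA esters, rose under nonspecific siRNA by log2 fold changes of 0.29 and 0.43 (edgeR adjusted p = 0.01 and 6.10e-04). Under paxillin siRNA they had 0.11 and 0.13 (edgeR adjusted p = 0.304 and 0.23). The call of SLC27A4 under nonspecific siRNA was lost without any 1 of nonspecific DHT replicate 3 or nonspecific vehicle replicate 2 (adjusted p of 0.0564 to 0.0626).

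The DHT responses under the 2 siRNAs share no library, but they come from the same fit over 12 libraries, and same-numbered libraries deviated together. The 2 arms are therefore not independent. In both arms 22 carriers rose and 30 fell. These are 75.9% and 85.7% of those called under nonspecific siRNA and 95.7% and 85.7% of those called under paxillin siRNA. No carrier was called in opposite directions. Of all tested genes 38% were called under paxillin siRNA, 40.5% under nonspecific siRNA and 49.5% under at least 1 siRNA. The overlap by direction over all tested genes is not given here, so the agreement is not read as particular to the carriers. Over the 113 carriers Spearman's rho of the log2 fold changes was 0.855, and Pearson's r was 0.939 over the 111 left after the 2 largest changes were set aside; these describe genes of the same libraries, which are not independent replicates.

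**Figure D3:**
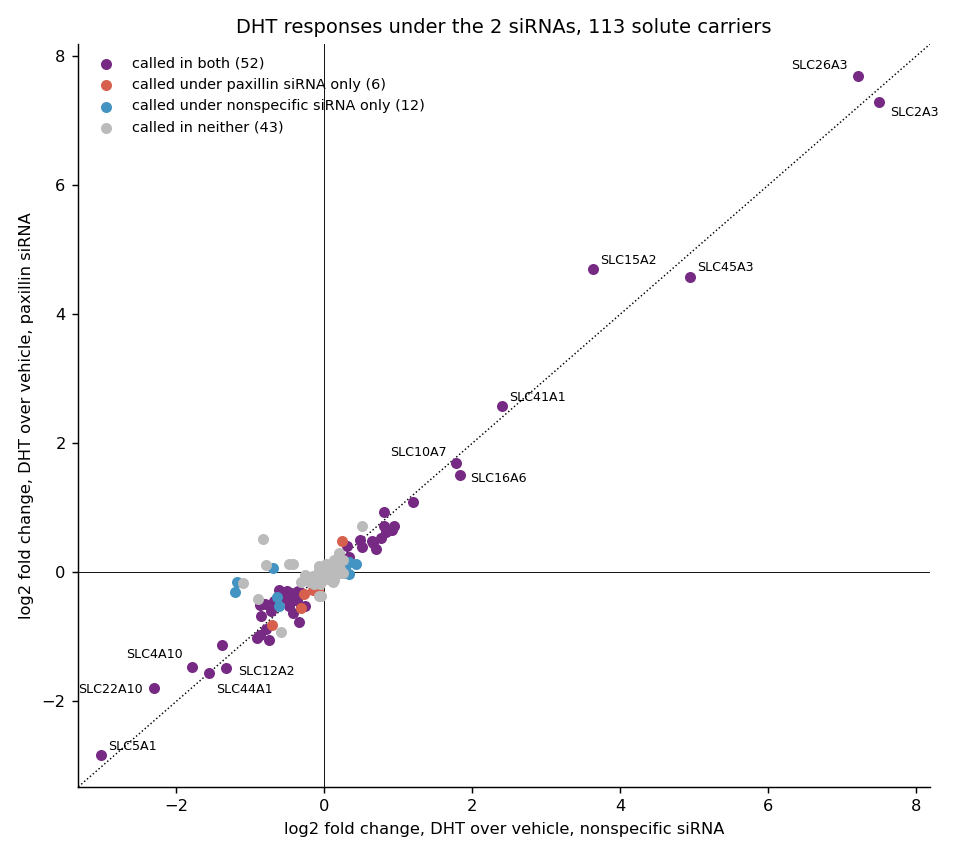
Log2 fold change with DHT over vehicle of the 113 solute carriers, under paxillin siRNA (vertical) and nonspecific siRNA (horizontal); points are genes, colour gives the calls at an edgeR adjusted p under 0.05 and the dotted line marks equal values. SLC26A3 is drawn at its lower bound on both axes; 52 carriers were called in both arms, all in the same direction, and SLC15A2 lies above the line.

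Whether the DHT response itself differed between the siRNAs was tested as the interaction of siRNA and DHT. 0 of the 113 carriers passed with edgeR, where 0.0496% of all tested genes did (8 genes), and 11 had an unadjusted p under 0.05. DESeq2 called 0 carriers and 0.335% of all tested genes (54 genes). The replicate block called 0 carriers and 0.602% of all (97 genes), with 21 carriers at an unadjusted p under 0.05. The shares of all tested genes at that unadjusted limit are not given here, so nothing is drawn from the 11 and 21. The fit with no filter on low counts called 1 carrier, SLC2A13 (adjusted p = 0.0165), where 0.415% of 34208 genes passed (142 genes). SLC2A13 (chr12:39755021-40106089), the myo-inositol carrier, had 2.85, 3.27 and 4.89 CPM with DHT against 4.18, 4.16 and 3.88 CPM with vehicle under paxillin siRNA. Under nonspecific siRNA SLC2A13 had 3, 3.44 and 2.7 CPM with DHT against 6.93, 5.81 and 7.97 CPM with vehicle. Its DHT and vehicle libraries overlapped under paxillin siRNA and were apart under nonspecific siRNA, and the interaction was 1.03 ± 0.27 on the log2 scale (edgeR adjusted p = 0.302, the lowest of the carriers). For SLC29A1 the interaction was -0.44 ± 0.15 (edgeR adjusted p = 0.406) and for SLC45A3 -0.37 ± 0.13 (edgeR adjusted p = 0.438). SLC15A2 had 1.06 ± 0.56 (edgeR adjusted p = 0.603) and SLC2A1 -0.23 ± 0.11 (edgeR adjusted p = 0.59).

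Paxillin siRNA was compared with nonspecific siRNA in DHT and in vehicle. No group had another paxillin siRNA or had paxillin restored. Effects of lowered paxillin and other effects of the siRNA therefore cannot be told apart. SLC5A1 was higher with paxillin siRNA under both treatments, and the biotin and pantothenate carrier SLC5A6, the choline-family member SLC44A3 and SLC10A7 rose less. The phosphate carrier SLC20A1, the pyruvate carrier SLC16A7 and SLC45A2 fell. In DHT 13 carriers rose and 12 fell, where 6.34% and 7% of all tested genes did. In vehicle 21 rose and 12 fell, where 10.7% and 9.78% of all tested genes did. In either direction, 22.1% of the carriers were called in DHT, where 13.3% of all tested genes were, and 29.2% in vehicle, where 20.5% were. With a replicate block, which the pairing of same-numbered libraries allows, 21 rose and 16 fell in DHT, where 10.4% and 11.2% of all tested genes did. In vehicle 31 rose and 17 fell with the block, where 14.8% and 13.5% of all tested genes did. Calls thus became more frequent over all genes as well as among the carriers. At least 2-fold, 3 carriers rose in DHT, 2 rose in vehicle and none of the called ones fell. Shares of all tested genes at 2-fold are again not given. The median log2 fold change was 0.07 over the carriers under both treatments, against 0.00 and -0.01 over all tested genes.

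The counts depended on single libraries, and those over all tested genes dropped with them. In DHT 8 carriers rose without paxillin DHT replicate 3, where 2.98% of all tested genes did, and 7 rose without nonspecific DHT replicate 1, where 4.34% did. In DHT 5 fell without paxillin DHT replicate 2, 7 without paxillin DHT replicate 3, 7 without nonspecific DHT replicate 2 and 6 without nonspecific DHT replicate 3, where 4.67%, 4.25%, 4.41% and 5.3% of all tested genes did. In vehicle 13 rose without paxillin vehicle replicate 3 and 12 without nonspecific vehicle replicate 2, where 5.91% and 6.03% of all tested genes did. In vehicle 5 fell without paxillin vehicle replicate 2, 7 without paxillin vehicle replicate 3, 7 without nonspecific vehicle replicate 1 and 6 without nonspecific vehicle replicate 2, where 6.14%, 5.55%, 8.79% and 6.09% of all tested genes did.

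SLC5A1, given above by arm, had 5.05, 7.52 and 11.7 CPM with paxillin siRNA against 2.4, 3.01 and 2.62 CPM with nonspecific siRNA in DHT. In vehicle SLC5A1 had 37.5, 59.9 and 74.7 CPM with paxillin siRNA against 18.3, 24.8 and 21.7 CPM with nonspecific siRNA. Every paxillin siRNA library was above every nonspecific library of the same treatment, with log2 fold changes of 1.58 ± 0.31 in DHT and 1.39 ± 0.22 in vehicle (edgeR adjusted p = 0.00268 and 3.43e-04). SLC5A6, the sodium-dependent multivitamin carrier, had 76.7, 80.3 and 109.6 CPM with paxillin siRNA against 50.2, 54.2 and 60.1 CPM with nonspecific siRNA in DHT. In vehicle SLC5A6 had 71.5, 75.4 and 104 CPM with paxillin siRNA against 54.6, 44.5 and 48.2 CPM with nonspecific siRNA. Replicate 3 was the highest of both paxillin siRNA groups, the groups did not overlap, and the log2 fold changes were 0.69 ± 0.14 in DHT and 0.78 ± 0.14 in vehicle (edgeR adjusted p = 0.00271 and 8.85e-04). SLC44A3 had 9.37, 11.1 and 14.1 CPM with paxillin siRNA against 6, 6.97 and 7.05 CPM with nonspecific siRNA in DHT. In vehicle SLC44A3 had 9.27, 10.9 and 13.9 CPM with paxillin siRNA against 6.36, 7.48 and 6.17 CPM with nonspecific siRNA. It too was highest in replicate 3 of the paxillin siRNA groups, with log2 fold changes of 0.78 ± 0.16 in DHT and 0.76 ± 0.17 in vehicle (edgeR adjusted p = 0.00395 and 0.00367).

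SLC10A7 rose with paxillin siRNA by log2 fold changes of 0.47 ± 0.06 in DHT and 0.56 ± 0.07 in vehicle (edgeR adjusted p = 1.35e-04 and 4.71e-05), and the riboflavin carrier SLC52A3 by 0.51 ± 0.13 in DHT and 0.55 ± 0.13 in vehicle (edgeR adjusted p = 0.0178 and 0.00607). The calls of SLC52A3 were lost without any 1 of paxillin DHT replicate 3 or nonspecific DHT replicates 1 and 3 (adjusted p of 0.0579 to 0.0583) in DHT and without nonspecific vehicle replicate 2 (adjusted p = 0.0508) in vehicle. SLC22A31 rose by log2 fold changes of 0.36 ± 0.09 in DHT and 0.62 ± 0.10 in vehicle (edgeR adjusted p = 0.0138 and 3.19e-04). Its call in DHT was lost without any 1 of paxillin DHT replicate 2 or nonspecific DHT replicates 2 and 3 (adjusted p of 0.05 to 0.0602). SLC4A10 rose by log2 fold changes of 1.54 ± 0.49 in DHT and 1.22 ± 0.36 in vehicle (edgeR adjusted p = 0.0455 and 0.0223) at a level under 2 CPM in every library. Its calls were lost without any 1 of paxillin DHT replicates 2 and 3, paxillin vehicle replicates 2 and 3, nonspecific DHT replicates 1, 2 and 3 or nonspecific vehicle replicate 3 (adjusted p of 0.052 to 0.179) in DHT and without any 1 of paxillin vehicle replicates 2 and 3 or nonspecific vehicle replicates 1 and 3 (adjusted p of 0.0575 to 0.0796) in vehicle. In vehicle SLC34A3, a sodium phosphate cotransporter of the kidney, had 4.73, 5.54 and 7.06 CPM with paxillin siRNA against 2.53, 2.48 and 4.14 CPM with nonspecific siRNA and rose by a log2 fold change of 0.89 ± 0.20 (edgeR adjusted p = 0.00403). In DHT it had a log2 fold change of 0.60 (edgeR adjusted p = 0.0511) and was called with a replicate block (0.62, adjusted p = 0.0116), with DESeq2, with no filter and with the compared groups alone (adjusted p of 0.0128 to 0.0370). SLC26A1 rose in vehicle by 0.64 ± 0.17 (edgeR adjusted p = 0.0123), a call lost without any 1 of paxillin vehicle replicate 3 or nonspecific vehicle replicate 2 (adjusted p of 0.0653 to 0.0656), and had 0.43 in DHT (edgeR adjusted p = 0.0821), which a replicate block called (0.44, adjusted p = 1.58e-04), as did the fit with no filter (adjusted p = 2.84e-05).

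SLC15A2 was called in DHT and not in vehicle. In DHT it had 11.5, 14.4 and 20.3 CPM with paxillin siRNA against 6.34, 4.92 and 6.07 CPM with nonspecific siRNA and a log2 fold change of 1.41 ± 0.22 (edgeR adjusted p = 4.63e-04). In vehicle, near 0, it had 0.34 (edgeR adjusted p = 0.676), and the interaction given above did not pass. SLC37A2, a glucose phosphate carrier of macrophages, had 2.46, 2.32 and 2.45 CPM with paxillin siRNA against 0.942, 1.35 and 1.5 CPM with nonspecific siRNA in DHT and rose there by a log2 fold change of 0.92 ± 0.23 (edgeR adjusted p = 0.0113), a call lost without nonspecific DHT replicate 1 (adjusted p = 0.0562). In vehicle its log2 fold change was 0.36 (edgeR adjusted p = 0.276). SLC4A4 rose in DHT by 0.52 ± 0.12 (edgeR adjusted p = 0.0099), a call lost without any 1 of paxillin DHT replicate 3 or nonspecific DHT replicate 1 (adjusted p of 0.0542 to 0.0735). In vehicle it had 0.27 (edgeR adjusted p = 0.127) and was called with a replicate block (0.27, adjusted p = 0.0164), with no filter and with the compared groups alone (adjusted p = 0.00141 and 0.0184).

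SLC20A1, the phosphate carrier PiT1, had 38.1, 34.2 and 36.3 CPM with paxillin siRNA against 63.2, 67.1 and 71.8 CPM with nonspecific siRNA in DHT. In vehicle SLC20A1 had 38.2, 34.3 and 36.8 CPM with paxillin siRNA against 66.7, 52.8 and 57.1 CPM with nonspecific siRNA. All paxillin siRNA libraries were below all nonspecific ones, and the log2 fold changes were -0.90 ± 0.08 in DHT and -0.68 ± 0.08 in vehicle (edgeR adjusted p = 4.90e-06 and 3.58e-05). SLC16A7, the carrier MCT2, had 6.98, 6.34 and 5.32 CPM with paxillin siRNA against 11.5, 10.2 and 11.7 CPM with nonspecific siRNA in DHT. In vehicle SLC16A7 had 15.4, 12.5 and 9.85 CPM with paxillin siRNA against 24.4, 21.9 and 17.1 CPM with nonspecific siRNA. Its groups were likewise apart, with log2 fold changes of -0.84 ± 0.16 in DHT and -0.73 ± 0.15 in vehicle (edgeR adjusted p = 0.00244 and 0.00222). SLC11A2, the iron importer DMT1, fell by log2 fold changes of -0.22 ± 0.06 in DHT and -0.38 ± 0.06 in vehicle (edgeR adjusted p = 0.0263 and 4.73e-04). The call in DHT was lost without any 1 of paxillin DHT replicates 1 and 2 or nonspecific DHT replicates 2 and 3 (adjusted p of 0.06 to 0.12). SLC45A2, a carrier of melanosomes, fell by log2 fold changes of -0.56 ± 0.17 in DHT and -0.77 ± 0.17 in vehicle (edgeR adjusted p = 0.0384 and 0.00405). The call in DHT was lost without any 1 of paxillin DHT replicates 1, 2 and 3 or nonspecific DHT replicates 2 and 3 (adjusted p of 0.0642 to 0.168).

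SLC45A1, a sugar carrier of the brain, fell by log2 fold changes of -0.41 ± 0.13 in DHT and -0.37 ± 0.13 in vehicle (edgeR adjusted p = 0.0409 and 0.0487). Its calls were lost without any 1 of paxillin DHT replicates 2 and 3 or nonspecific DHT replicates 2 and 3 (adjusted p of 0.0626 to 0.169) in DHT and without any 1 of paxillin DHT replicate 3, paxillin vehicle replicates 2 and 3, nonspecific DHT replicates 2 and 3 or nonspecific vehicle replicates 1, 2 and 3 (adjusted p of 0.051 to 0.216) in vehicle, the last also with RLE scaling, no filter or the compared groups alone (adjusted p of 0.0533 to 0.0718). SLC12A2 fell by log2 fold changes of -0.42 ± 0.10 in DHT and -0.28 ± 0.10 in vehicle (edgeR adjusted p = 0.00884 and 0.0487). The call in vehicle was lost without any 1 of paxillin DHT replicate 2, paxillin vehicle replicates 1 and 2, nonspecific DHT replicates 2 and 3 or nonspecific vehicle replicates 2 and 3 (adjusted p of 0.0531 to 0.174) and with RLE or upper-quartile scaling (adjusted p = 0.0556 and 0.0539). SLC19A2, the thiamine carrier, fell by log2 fold changes of -0.40 ± 0.07 in DHT and -0.23 ± 0.08 in vehicle (edgeR adjusted p = 0.00151 and 0.0377). The call in vehicle was lost without any 1 of paxillin DHT replicate 2, paxillin vehicle replicates 2 and 3 or nonspecific vehicle replicates 1, 2 and 3 (adjusted p of 0.0505 to 0.156), with no filter (adjusted p = 0.155) and with the compared groups alone (adjusted p = 0.0744). SLC50A1 fell with paxillin siRNA under both treatments, by log2 fold changes of -0.33 ± 0.06 in DHT and -0.23 ± 0.06 in vehicle (edgeR adjusted p = 0.00187 and 0.0114), whereas it rose with DHT. The call in vehicle was lost without paxillin vehicle replicate 2 (adjusted p = 0.0561).

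Some falls were called under 1 treatment. In DHT SLC16A6 fell by -0.58 ± 0.16 (edgeR adjusted p = 0.0225) and SLC2A4 by -0.39 ± 0.12 (edgeR adjusted p = 0.0394) as log2 fold changes. The call of SLC16A6 was lost without any 1 of paxillin DHT replicates 1 and 2 or nonspecific DHT replicates 2 and 3 (adjusted p of 0.0561 to 0.122), and that of SLC2A4 without any 1 of paxillin DHT replicates 1, 2 and 3, paxillin vehicle replicate 2 or nonspecific DHT replicates 1 and 3 (adjusted p of 0.052 to 0.177). In vehicle SLC2A13 had 4.18, 4.16 and 3.88 CPM with paxillin siRNA against 6.93, 5.81 and 7.97 CPM with nonspecific siRNA and fell by a log2 fold change of -0.76 ± 0.18 (edgeR adjusted p = 0.00711), against 0.27 in DHT (edgeR adjusted p = 0.419). SLC5A3, the other myo-inositol carrier, fell in vehicle by -0.37 ± 0.11 (edgeR adjusted p = 0.0261), a call lost without any 1 of paxillin vehicle replicates 2 and 3 or nonspecific vehicle replicates 1 and 2 (adjusted p of 0.0878 to 0.117), and had -0.01 in DHT (edgeR adjusted p = 0.956). SLC35A3, the UDP-N-acetylglucosamine carrier, fell in vehicle by -0.28 ± 0.09 (edgeR adjusted p = 0.0326), a call lost without any 1 of paxillin vehicle replicates 2 and 3 or nonspecific vehicle replicates 1, 2 and 3 (adjusted p of 0.0672 to 0.149), with no filter and with the compared groups alone (adjusted p = 0.0734 and 0.0540). In DHT SLC35A3 had -0.24 (edgeR adjusted p = 0.0805), which a replicate block called (adjusted p = 0.0371).

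Among the carriers that DHT raised most, SLC26A3 had 0 counts in vehicle with both siRNAs and a log2 fold change of 0.07 ± 0.15 in DHT (edgeR adjusted p = 0.794). SLC2A3 had log2 fold changes of -0.28 ± 0.16 in DHT and -0.07 ± 0.96 in vehicle (edgeR adjusted p = 0.286 and 0.965), and SLC2A1 of -0.11 ± 0.08 in DHT and 0.12 ± 0.08 in vehicle (edgeR adjusted p = 0.399 and 0.348). SLC45A3 was called in vehicle only, with log2 fold changes of -0.07 ± 0.09 in DHT and 0.30 ± 0.09 in vehicle (edgeR adjusted p = 0.67 and 0.0311), and that call was lost without any 1 of paxillin vehicle replicates 2 and 3 or nonspecific vehicle replicates 2 and 3 (adjusted p of 0.0727 to 0.128). SLC41A1 was called under neither treatment.

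**Figure D4:**
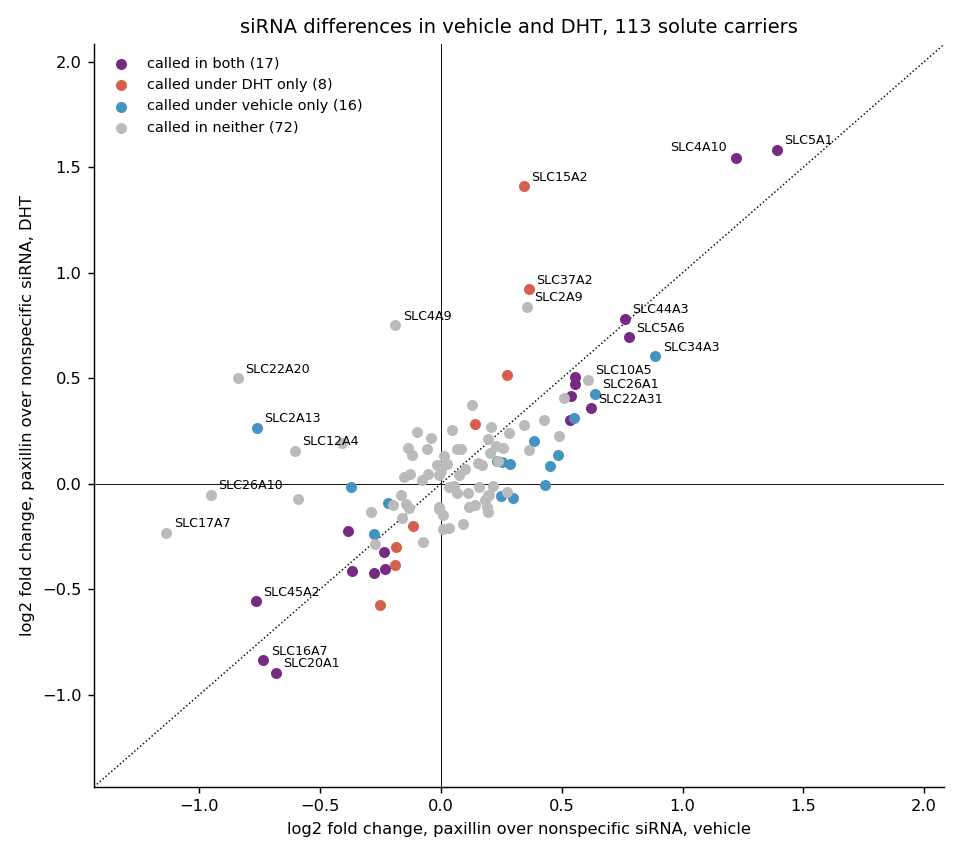
Log2 fold change with paxillin over nonspecific siRNA of the 113 solute carriers, in DHT (vertical) and in vehicle (horizontal); points are genes, colour gives the calls at an edgeR adjusted p under 0.05 and the dotted line marks equal values. SLC5A1 and SLC4A10 lie farthest up in both, SLC20A1 and SLC16A7 are low in both, and 17 carriers were called under both treatments, all in the same direction.

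The siRNA comparisons in DHT and in vehicle share no library either, though they too share the fit and the pairing of same-numbered libraries. Both called 9 carriers as higher, 69.2% of those that rose in DHT and 42.9% of those that rose in vehicle, and 8 as lower, 66.7% of those that fell under each treatment. None was called in opposite directions, and Spearman's rho over the 113 was 0.635. Of all tested genes 13.3% were called in DHT, 20.5% in vehicle and 25.5% under at least 1 treatment. Their overlap by direction is not given here. Across all 4 comparisons 31 of the 113 carriers were not called in any, among them SLC44A4, SLC35A4, SLC31A1, SLC16A1 and SLC4A2. All tested genes held 41.5% that were called in no comparison, and the carriers 27.4%. DHT called 70 carriers under at least 1 siRNA (61.9%, against 49.5% of all tested genes), and the siRNA called 41 under at least 1 treatment (36.3%, against 25.5%). SLC5A1, SLC4A10 and SLC52A3 fell with DHT in both arms and rose with paxillin siRNA under both treatments. SLC10A7 and SLC22A31 rose in all 4 comparisons, and SLC12A2 and SLC16A7 fell in all 4. As the comparisons share their control libraries in pairs, these patterns are counts and not a test.

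Of 31 listed proteins that work with these carriers (kinases, sodium pump subunits, scaffold and trafficking proteins), 25 were tested. With DHT 12 rose and 8 fell under paxillin siRNA, where 20.1% and 17.9% of all tested genes did. The numbers were 13 and 6 under nonspecific siRNA, against 21.6% and 18.9% of all tested genes. The partner list was chosen with earlier results of these data known, so these counts are not a test. SGK1, a kinase that keeps many carriers at the cell surface, had 75.6, 66.3 and 64.2 CPM with DHT against 1.38, 1.2 and 1.52 CPM with vehicle under paxillin siRNA. Under nonspecific siRNA SGK1 had 81.7, 59 and 66.5 CPM with DHT against 0.652, 0.814 and 0.94 CPM with vehicle. All DHT libraries were far above all vehicle libraries, with log2 fold changes of 5.64 ± 0.14 under paxillin siRNA and 6.36 ± 0.17 under nonspecific siRNA (edgeR adjusted p = 3.67e-15 and 4.86e-15). STK39, the kinase SPAK that phosphorylates SLC12A2, rose by log2 fold changes of 2.19 ± 0.10 under paxillin siRNA and 2.26 ± 0.10 under nonspecific siRNA (edgeR adjusted p = 1.05e-11 and 8.51e-12), the opposite direction to SLC12A2 itself. TBC1D4, which governs the traffic of SLC2A4, rose by 1.56 under paxillin siRNA and 1.29 under nonspecific siRNA (edgeR adjusted p = 6.06e-09 and 7.35e-08), and FXYD3, a regulator of the sodium pump, by 1.29 under paxillin siRNA and 1.59 under nonspecific siRNA (edgeR adjusted p = 3.00e-08 and 1.83e-09). Another gene on the same strand overlaps 40.7% of the exons of FXYD3, so its values in all comparisons are uncertain to that extent.

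ATP1B1, the beta subunit of the sodium pump that maintains the gradient sodium-coupled carriers use, fell with DHT by log2 fold changes of -1.67 ± 0.10 under paxillin siRNA and -1.75 ± 0.09 under nonspecific siRNA (edgeR adjusted p = 2.89e-10 and 9.16e-11). WNK3, a kinase upstream of STK39, fell by 0.46 under paxillin siRNA and 0.89 under nonspecific siRNA on the log2 scale (edgeR adjusted p = 0.003 and 5.04e-06). The related WNK1 had a higher mean level over the 12 libraries (255 against 24.2 CPM). It rose by 0.30 under paxillin siRNA and 0.22 under nonspecific siRNA (edgeR adjusted p = 7.46e-04 and 0.00818). WNK2 had -0.27 under paxillin siRNA and -0.14 under nonspecific siRNA (edgeR adjusted p = 0.00729 and 0.144). TXNIP, an arrestin that takes SLC2A1 off the surface, fell by 0.62 under paxillin siRNA and 0.61 under nonspecific siRNA (edgeR adjusted p = 0.016 and 0.0174). Its calls were lost without any 1 of paxillin DHT replicate 3 or paxillin vehicle replicates 1 and 2 (adjusted p of 0.0574 to 0.0642) for paxillin siRNA and without any 1 of nonspecific DHT replicate 3 or nonspecific vehicle replicates 1 and 2 (adjusted p of 0.0751 to 0.095) for nonspecific siRNA. EMB, or embigin, the partner of SLC16A7 at the membrane, fell with DHT by log2 fold changes of -0.37 ± 0.08 under paxillin siRNA and -0.59 ± 0.08 under nonspecific siRNA (edgeR adjusted p = 0.00168 and 1.07e-05).

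With paxillin siRNA 3 of the 25 partners rose and 4 fell in DHT, where 6.34% and 7% of all tested genes did. In vehicle 5 rose and 7 fell, where 10.7% and 9.78% of all tested genes did. EMB fell, as SLC16A7 did, by log2 fold changes of -0.58 ± 0.08 in DHT and -0.81 ± 0.08 in vehicle (edgeR adjusted p = 2.14e-04 and 7.01e-06). ATP1B1 had 19.6, 22.3 and 18.7 CPM with paxillin siRNA against 35, 43.2 and 46.5 CPM with nonspecific siRNA in DHT. In vehicle ATP1B1 had 66.8, 61.6 and 64.9 CPM with paxillin siRNA against 126, 139 and 154 CPM with nonspecific siRNA, the groups being well apart, with log2 fold changes of -1.04 ± 0.10 in DHT and -1.12 ± 0.09 in vehicle (edgeR adjusted p = 8.86e-06 and 1.54e-06). In vehicle TBC1D4 and FXYD3 also fell, by log2 fold changes of -0.50 and -0.40 (edgeR adjusted p = 0.00656 and 0.0188). The vehicle call of FXYD3 was lost without any 1 of paxillin vehicle replicate 3 or nonspecific vehicle replicate 1 (adjusted p of 0.0678 to 0.0793). In DHT FXYD3 fell by a log2 fold change of -0.70, and TBC1D4 had -0.23 (edgeR adjusted p = 2.36e-04 and 0.173). The scaffolds SLC9A3R2 and SLC9A3R1, which anchor SLC9 exchangers, rose in vehicle by 0.54 and 0.47 (edgeR adjusted p = 4.84e-05 and 3.05e-04). In DHT SLC9A3R1 rose by 0.38, and SLC9A3R2 had 0.17 (edgeR adjusted p = 0.00244 and 0.0981). A gene on the opposite strand overlaps 11.3% of the exons of SLC9A3R1. The arrestins ARRDC4 and ARRDC3, of which ARRDC4 acts on glucose uptake, rose in vehicle by 0.57 and 0.41 (edgeR adjusted p = 7.52e-04 and 0.00172). In DHT ARRDC4 rose by 0.50, and ARRDC3 had 0.21 (edgeR adjusted p = 0.00244 and 0.109).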

How the data were processed

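Poly(A) RNA of 12 libraries was sequenced after a TruSeq Stranded mRNA preparation, per the labels' protocols. The authors deposited 1 table of raw counts per gene symbol. The submitters' processing notes name Trimmomatic 0.36, STAR 2.5.2b, featureCounts of Subread 1.5.0p3 and the build GRCh38, while no source used here gives the annotation release or the strand setting. The 113 carriers, their classes and the partner list were chosen with earlier results of these data known.

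The counts were fitted in R 4.3.3 with edgeR 4.0.16 (quasi-likelihood test, TMM scaling, 1 mean per group over 12 libraries). filterByExpr (minimum count 10, minimum total 15) left 16115 of 56269 genes, and Benjamini-Hochberg adjustment ran over all of them. The standard error is the size of the log2 fold change divided by the square root of the F statistic. Fits on simulated counts with known changes were checked first. Depth ran from 11944906 to 32040465 counts per library, which sets the precision of low genes. Coordinates and exon lengths came from GENCODE 29 (GRCh38), which need not be the authors' annotation.

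Within groups, replicates differed by more than counting noise (6.19 to 18.7 units of chi-square for each degree of freedom), and none was taken as a repeat of another. The labels number replicates 1 to 3 in each group. Deviations from group means, on log2 of CPM plus 1 over 10701 genes with a mean of at least 5 CPM, correlated at 0.15 to 0.49 in all 18 same-numbered pairs (median 0.27) and at -0.42 to 0.22 in 36 other pairs (median -0.12). On that basis same-numbered libraries count as paired. Deviations cancel within a group, so the values of the other pairs follow in part from those of the same-numbered pairs. The main fits take no account of the pairing, and only the repeat with the replicate number as a block does.

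Genes named were SLC2A1, SLC2A3, SLC26A3 and SLC45A3, the 8 largest called rises and 8 largest called falls per comparison (mean of 1 CPM or more in a group), up to 2 called per class and direction for DHT under nonspecific siRNA, the 10 highest carriers, and up to 4 called partners per direction for DHT under nonspecific siRNA and for paxillin siRNA in vehicle. Further genes, and the same genes in other comparisons, were named after their values were seen. Some genes that this rule picks are not reported here by name; they stay in the fits and in the counts of called carriers. Each fit was repeated with scaling by RLE or the upper quartile, without the filter, with DESeq2 1.42.0, with the replicate number as a block, on only those groups that a comparison sets side by side, at 0.01 as the threshold and without each library in turn.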

Additional observations from a re-analysis of the deposited data

How the results depend on the processing

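Counts of called carriers kept within 1.5 times of the values given under RLE and upper-quartile scaling, DESeq2 and the compared groups alone. At an adjusted p under 0.01, 23 carriers fell with DHT under nonspecific siRNA, 7 rose and 5 fell with paxillin siRNA in DHT, and 13 rose and 5 fell with paxillin siRNA in vehicle. These follow from the stricter threshold, at which the shares of all tested genes are not given here. With a replicate block 21 rose with paxillin siRNA in DHT, and with no filter 1 carrier passed the interaction; the cause was not tested. Of the 231 gene values recomputed under every alternative, the block changed the call of SLC12A4 under nonspecific siRNA, whose fall was lost, and of the 9 values named as called with it. Named genes were not followed in every comparison.

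Leaving out 1 library at a time, the carriers that rose with DHT numbered 21 to 26 under paxillin siRNA and 25 to 32 under nonspecific siRNA, and those that fell 26 to 37 under paxillin siRNA and 26 to 35 under nonspecific siRNA. Over all tested genes 16.4% to 20.8% then rose and 14.5% to 18.5% fell with DHT under paxillin siRNA. The shares under nonspecific siRNA were 18.4% to 22.1% and 15.6% to 19.4%. With paxillin siRNA 7 to 14 carriers rose and 5 to 13 fell in DHT. Of all tested genes 2.98% to 7.07% and 4.25% to 7.84% did. In vehicle 12 to 25 carriers rose and 5 to 15 fell, where 5.91% to 11.6% and 5.55% to 10% of all did. The interaction called 0 to 0.

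Of 4380 alternative values for 231 gene values, 4058 kept direction and side of the threshold, 261 lost the call, 41 gained it and 20 changed sign. Those that changed sign were not called. With upper-quartile scaling SLC12A8 and SLC12A4 had -0.0030 and -0.014 with DHT under paxillin siRNA. The others changed sign when 1 library was left out. With DHT under paxillin siRNA the values of SLC2A13 then ran from -0.43 to 0.0039, those of SLC12A4 from -0.036 to 0.18 and those of SLC20A1 from -0.062 to 0.030. Those of SLC4A2 under nonspecific siRNA ran from -0.21 to 0.0071. With paxillin siRNA in DHT SLC45A3 ran from -0.15 to 0.020 and SLC5A3 from -0.089 to 0.13, and in vehicle SLC2A3 from -0.79 to 1.04. The interaction ran from -1.32 to 0.51 for SLC2A3 and from -0.18 to 0.46 for SLC5A1. Carriers under about 1 CPM, and SLC2A3 and SLC26A3 in vehicle, rest on few counts.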

Other observations

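SLC45A3 and SLC41A1, which rose with DHT in both arms, are neighbours on the minus strand of chromosome 1, with 108634 bases between their nearest ends (GENCODE 29, GRCh38). The genes tested between them were NUCKS1 and RAB29. RAB29, a small GTPase of the Golgi and lysosomes, averaged 86.6 ± 3.93 CPM with DHT and 65.2 ± 1.46 CPM with vehicle under paxillin siRNA, and 80.9 ± 4.33 CPM with DHT and 60.3 ± 1.14 CPM with vehicle under nonspecific siRNA (SD, n = 3 each). Its log2 fold changes were 0.41 under paxillin siRNA and 0.42 under nonspecific siRNA (edgeR adjusted p = 2.13e-05 and 1.86e-05). NUCKS1, a nuclear DNA-binding protein, averaged 200.4 ± 3.46 CPM with DHT and 179 ± 7.82 CPM with vehicle under paxillin siRNA, and 240.3 ± 6.34 CPM with DHT and 221 ± 7.30 CPM with vehicle under nonspecific siRNA. Its log2 fold changes were 0.16 under paxillin siRNA and 0.12 under nonspecific siRNA (edgeR adjusted p = 0.0298 and 0.0946). Both genes were chosen for their position after the values of the carriers were seen.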
